A study of Bos taurus with 12 samples.

Results

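Neuronatin (NNAT), delta-like 1 (DLK1) and 5 further imprinted genes, IGF2, IGF2R, PEG3, MEST and GNAS, were followed in the fat of cattle. The members were every probe set of the Affymetrix bovine array annotated with exactly 1 gene symbol that was one of these 7, which gave 24 probe sets of the 24016 on the array that were not controls. The set was selected on the signals of NNAT in these same data, which were known to differ between the breeds in both depots, so the breed differences below are a description with no test. The results for the depots were also available at that time, so the p-values given for them and for the interaction are not independent support. By RefSeq (assembly ARS-UCD2.0) the genes lie on chromosome 13 (NNAT, GNAS), 21 (DLK1), 29 (IGF2), 9 (IGF2R), 18 (PEG3) and 4 (MEST).

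An imprinted gene is transcribed mainly from a single parental copy, and many such genes act on growth and on the use of nutrients. The array measures the RNA of both copies together and does not tell the alleles apart. Whether the genes called imprinted here are so in the fat of cattle was therefore not tested. NNAT is transcribed from the paternal copy in mouse and human and encodes a small proteolipid of the endoplasmic reticulum that is best known from the brain and also occurs in fat cells. DLK1, known also as preadipocyte factor 1, is a membrane protein with EGF-like repeats that holds back the maturation of fat cells in mouse and is active in growing muscle.

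The samples came from Japanese Black (JB) steers, a beef breed known for marbled meat, and from Holstein (HS) steers, a dairy breed. All animals received an energy-rich feed, so no group on another diet was compared. Intramuscular fat (IMF) and subcutaneous fat (SCF) were profiled, which gave 4 groups of 3 samples: JB IMF, HS IMF, JB SCF and HS SCF. The IMF samples carry the numbers 1 to 3 and the SCF samples 4 to 6 within each breed. The labels give no ages. They also do not say whether samples came from separate animals, so the p-values cover only the spread of these 12 samples, part of which may be technical.

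The fat cell genes ADIPOQ, FABP4 and LEP gave signals in every sample, the lowest being 214 for ADIPOQ in a JB IMF sample. The IMF samples also held muscle RNA. ACTA1, the actin of skeletal muscle, had signals of 14944 to 16354 in JB IMF, 11382 to 15380 in HS IMF, 33.8 to 1462 in JB SCF and 6.95 to 7292 in HS SCF. The median signal of an array was 77.6 to 88.3 except in HS IMF 3, where it was 58.8. The bioB hybridization control, which is spiked in at a fixed amount, stood at 1385 in HS IMF 2 and 1182 in HS SCF 4, against 240 to 669 on the other arrays. The comparisons of the tested members and of the neighbouring genes BLCAP and MEG3 were repeated without these arrays.

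Signals are the deposited linear intensities. Differences are log2 differences of log2(signal + 16) after quantile normalization, which makes the distributions of the arrays equal, and they come with their standard error (SE) from a limma fit over the 12 samples. The pseudocount of 16 makes differences of dim probe sets smaller. The 30% of probe sets with the lowest mean were not tested, which left 16 of the 24 members and 16811 probe sets in all. The threshold for a call was an adjusted p under 0.05 after Benjamini-Hochberg adjustment over these 16811.

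NNAT was lower in JB than in HS in both depots and lower in IMF than in SCF in both breeds. Its probe set Bt.5129.2.A1_at had signals of 111, 68.4 and 44.5 in JB IMF and of 943, 501 and 322 in HS IMF. Its SCF signals were 311, 246 and 216 in JB and 2395, 922 and 1318 in HS. The highest JB sample of each depot lay below the lowest HS sample of that depot. The mean signals were 74.6 ± 33.7 in JB IMF, 589 ± 319 in HS IMF, 258 ± 48.9 in JB SCF and 1545 ± 762 in HS SCF (SD, n = 3 each). JB IMF was the lowest group and HS SCF the highest, and the JB SCF signals, 216 to 311, all lay below the 322 to 943 of HS IMF.

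Between JB and HS the log2 difference of NNAT was -3.0 ± 0.39 (SE) in IMF, an 8.0-fold lower level in JB, and -2.52 ± 0.39 in SCF, 5.74-fold lower. By size these differences ranked 5 in IMF and 12 in SCF among the 16811 probe sets tested. Without HS IMF 3 the difference in IMF was -3.14, and without HS IMF 2 and HS SCF 4 it was -3.15 in IMF and -2.11 in SCF. The difference in IMF minus that in SCF was -0.48 ± 0.55, with a 95% interval of -1.67 to 0.71, also given with no test.

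The second NNAT probe set, Bt.5129.1.S1_a_at, was too dim to be tested. Its signals were 0.05, 5.81 and 3.31 in JB IMF and 36.1, 28.3 and 3.69 in HS IMF. In SCF they were 36.5, 18.0 and 10.2 in JB and 203, 39.2 and 183 in HS. The groups had the same order by mean as in the first probe set, with JB SCF and HS IMF close together at 21.6 ± 13.5 and 22.7 ± 16.9 (SD, n = 3 each). Its breed difference, JB minus HS, was -0.95 ± 0.51 in IMF, where the samples overlapped, and -1.90 ± 0.51 in SCF, where they did not.

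**Figure D1:**
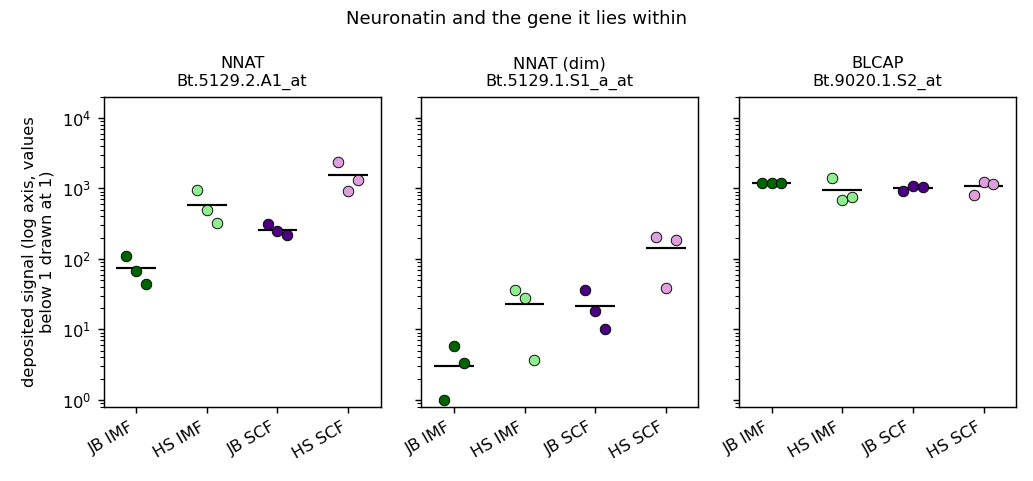
Deposited signal (log axis, values below 1 drawn at 1) of both NNAT probe sets and of the BLCAP probe set tested, for JB IMF, HS IMF, JB SCF and HS SCF. Points are samples and lines are group means. NNAT is lowest in JB IMF and highest in HS SCF, while BLCAP stays between 683 and 1389 in all 12 samples.

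NNAT was also compared between the depots. Over both breeds it was lower in IMF, with a log2 difference of -1.28 ± 0.27 (SE), 2.44-fold, and an adjusted p of 0.0114 by limma. Within JB the signals of 44.5 to 111 in IMF lay apart from the 216 to 311 in SCF, with a difference of -1.52 ± 0.39 that did not pass (adjusted p = 0.0574 by limma). It did pass without HS SCF 4 (adjusted p = 0.0242) or HS SCF 5 (adjusted p = 0.0492), samples outside the comparison, and with array weights (adjusted p = 0.00483). Within HS the IMF and SCF samples overlapped, the highest IMF signal being 943 and the lowest SCF signal 922, and the difference of -1.04 ± 0.39 did not pass (adjusted p = 0.151 by limma). Without HS IMF 2 and HS SCF 4 the difference over both breeds was -1.02 (adjusted p = 0.0235 by limma), and without HS IMF 3 it was -1.25 (adjusted p = 0.0237).

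By the same annotation NNAT lies on chromosome 13 within the bounds of BLCAP, a gene of broad expression that is imprinted in the mouse brain. The BLCAP probe set Bt.9020.1.S2_at had signals of 1206, 1202 and 1200 in JB IMF and of 1389, 683 and 752 in HS IMF. Its SCF signals were 929, 1086 and 1044 in JB and 811, 1250 and 1171 in HS. The breed difference was 0.03 ± 0.27 in IMF and -0.16 ± 0.27 in SCF, and the depot difference was 0.17 ± 0.19 (adjusted p = 0.599 by limma). Without HS IMF 2 and HS SCF 4 the breed difference was -0.24 in IMF and -0.32 in SCF, without HS IMF 3 it was 0.12 in IMF, and in the values as deposited it was 0.42 there. The breeds overlapped in both depots.

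Fat cell markers moved with depot as well. All 16 adipocyte genes tested had a negative IMF minus SCF difference, with a median of -0.91, and 3 passed, a count that was 9 without JB IMF 2 and 1 without JB IMF 1, JB IMF 3, HS SCF 5 or HS SCF 6. As a mean log2 level the list stood at 10.04 to 12.10 in JB IMF, 11.06 to 11.40 in HS IMF, 11.96 to 12.14 in JB SCF and up to 12.39 in HS SCF. The part of fat cell content in the depot and breed differences of NNAT was not tested. In bulk tissue, fewer cells of a type and less RNA per cell cannot be told apart. Nerve and Schwann cell genes, which mark nerves within the fat, had a mean log2 level of 7.84 to 7.98 in JB IMF, 7.35 to 8.18 in HS IMF, 8.0 to 8.23 in JB SCF and 7.99 to 8.36 in HS SCF, and 0 of 9 passed higher and 2 lower in IMF. Over the 12 samples NNAT and the adipocyte level correlated at 0.4 (Pearson). JB IMF 2 had an adipocyte level of 12.10, within the range of SCF, and an NNAT signal of 68.4, below all 6 SCF samples. That is a description of 1 sample.

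Over the 12 samples, the probe sets of other named genes most like NNAT among 10201 compared were those of CFAP410, LOC282255, BNIP3, MPP1 and DENND1A. Their Pearson correlations with NNAT were 0.90, 0.89, 0.88, 0.87 and 0.86, and the Spearman correlations were 0.92, 0.89, 0.90, 0.85 and 0.78. Without JB IMF 3 and HS SCF 4, the samples farthest from the median of NNAT, r was 0.76 to 0.85. The points share arrays, groups and normalization, and these are descriptions of 12 samples.

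DLK1 was higher in IMF than in SCF in both breeds. Its probe set Bt.5223.1.S1_at had signals of 365, 85.5 and 156 in JB IMF and of 540, 44.1 and 213 in HS IMF. The SCF signals were 6.25, 14.4 and 7.35 in JB and 15.7, 8.23 and 9.35 in HS. All 6 IMF samples lay above all 6 SCF samples, the lowest IMF signal being 44.1 in HS IMF 2 and the highest SCF signal 15.7 in HS SCF 4. Over both breeds the log2 difference was 2.99 ± 0.48 (SE), 7.97-fold, with an adjusted p of 0.00238 by limma. Its SCF means on the log2 scale, 4.63 in JB and 4.73 in HS, lay below the 5.63 under which a probe set was left out, so it was tested only through its IMF means of 7.47 and 7.88. With no filter the adjusted p was 0.00253. The SCF signals were about as low as the pseudocount, so the size depends on it: with a pseudocount of 1 the difference was 4.16.

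Within JB the DLK1 difference was 2.84 ± 0.69 (adjusted p = 0.0459 by limma) and within HS it was 3.14 ± 0.69 (adjusted p = 0.03). The interaction was -0.30 ± 0.97, with a 95% interval of -2.41 to 1.81 and an adjusted p of 0.991 by limma. Both calls within a breed lay near the threshold. The JB call was lost without JB IMF 1, JB IMF 3, any JB SCF sample or any HS SCF sample, with adjusted p-values of 0.219, 0.165, 0.13, 0.115, 0.16, 0.0565, 0.0675 and 0.0678 in that order, and with no filter on dim probe sets (adjusted p = 0.0514). The HS call was lost without HS IMF 1, HS IMF 3 or any HS SCF sample, with adjusted p-values of 0.053, 0.111, 0.0557, 0.0847 and 0.121, and with array weights (adjusted p = 0.126). Over both breeds the call held in all 22 settings tried, with adjusted p-values of 1.61e-05 to 0.0108. It was 2.85 (adjusted p = 0.00774) without HS IMF 3 and 3.56 (adjusted p = 5.35e-05) without HS IMF 2 and HS SCF 4.

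Between the breeds, DLK1 overlapped in both depots, with a JB minus HS difference of -0.41 ± 0.69 in IMF and -0.11 ± 0.69 in SCF. The IMF value changed sign with the weighting of arrays, to 0.58, and was -1.40 without HS IMF 2 and -0.02 without HS IMF 3. The SCF value was 0.04 without HS IMF 2 and HS SCF 4. The second probe set of DLK1, Bt.22916.1.A1_at, was dim. Its signals were 53.4, 23.7 and 19.7 in JB IMF and 97.3, 3.91 and 18.0 in HS IMF, against 0.05, 5.00 and 0.08 in JB SCF and 0, 10.4 and 6.47 in HS SCF. It was higher in IMF over both breeds by 1.23 ± 0.35, and HS IMF 2 was again the lowest IMF sample.

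**Figure D2:**
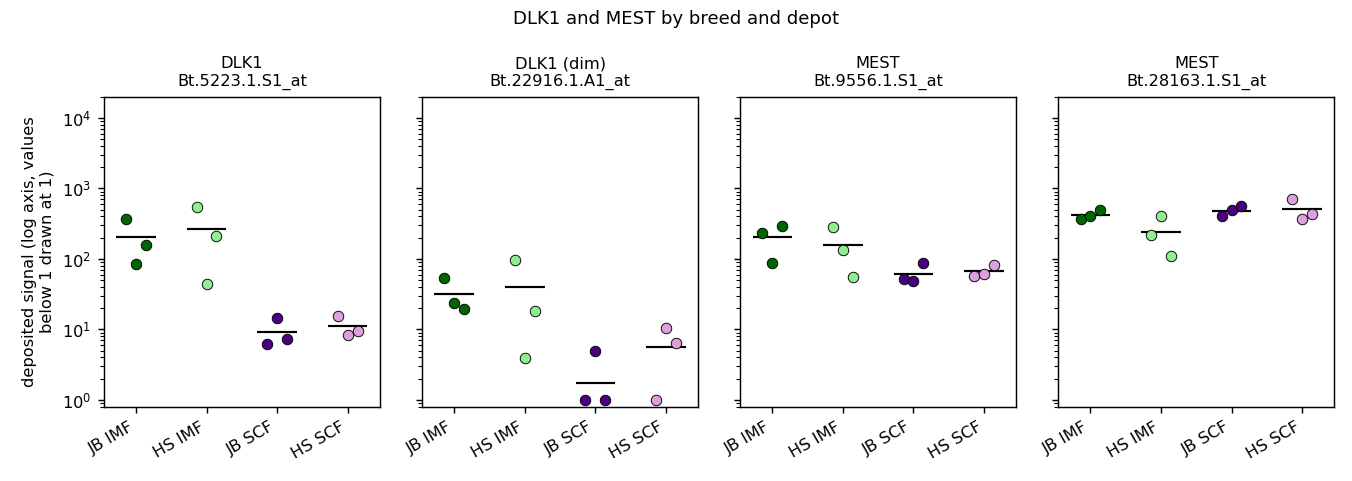
Deposited signal (log axis, values below 1 drawn at 1) of both DLK1 probe sets and of the 2 MEST probe sets tested, by group. Points are samples and lines are group means. All IMF samples lie above all SCF samples for Bt.5223.1.S1_at of DLK1, and the MEST probe sets differ from each other in direction.

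Muscle fibre genes also separated the depots. Of 15 muscle fibre genes tested, 13 passed and were higher in IMF, with a median log2 difference of 6.39 beside -0.06 for all probe sets tested. Their mean log2 level was 12.65 to 13.10 in JB IMF, 12.16 to 13.07 in HS IMF, 6.29 to 8.62 in JB SCF and 5.93 to 8.87 in HS SCF. Of 4 genes tested from the satellite cell list, 2 passed higher in IMF, MYF6 and DES, and 1 lower, VCAM1. Satellite cells are the stem cells of muscle. DES is also counted among the muscle fibre genes, and PAX7, PAX3, MYF5 and MYOD1 of the list were not tested. These counts therefore do not measure satellite cells apart from fibres. Of 11 adipose progenitor genes, 0 passed higher and 3 passed lower, with a median of -0.56, and 0 to 3 passed lower with 1 sample left out. Of 9 smooth muscle and pericyte genes 7 passed higher, and of 8 macrophage genes 8 passed lower in IMF. None of 8 endothelial and 5 erythroid genes passed, with medians of -0.14 and 0.23.

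JB SCF 6 and HS SCF 5 had muscle levels of 8.62 and 8.87, above the 5.93 to 6.47 of the other SCF samples. Their DLK1 signals were 7.35 and 8.23, within the 6.25 to 15.7 of SCF. These muscle levels still lay far below the 12.16 to 13.10 of IMF, and the DLK1 signals of SCF did not exceed the pseudocount of 16. Among the 6 IMF samples, HS IMF 2 had both the lowest muscle level, 12.16, and the lowest DLK1 signal, and the correlation of DLK1 with the muscle level was 0.86 (Pearson) and 0.60 (Spearman). The part of muscle RNA in the depot difference of DLK1 was not tested.

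**Figure D3:**
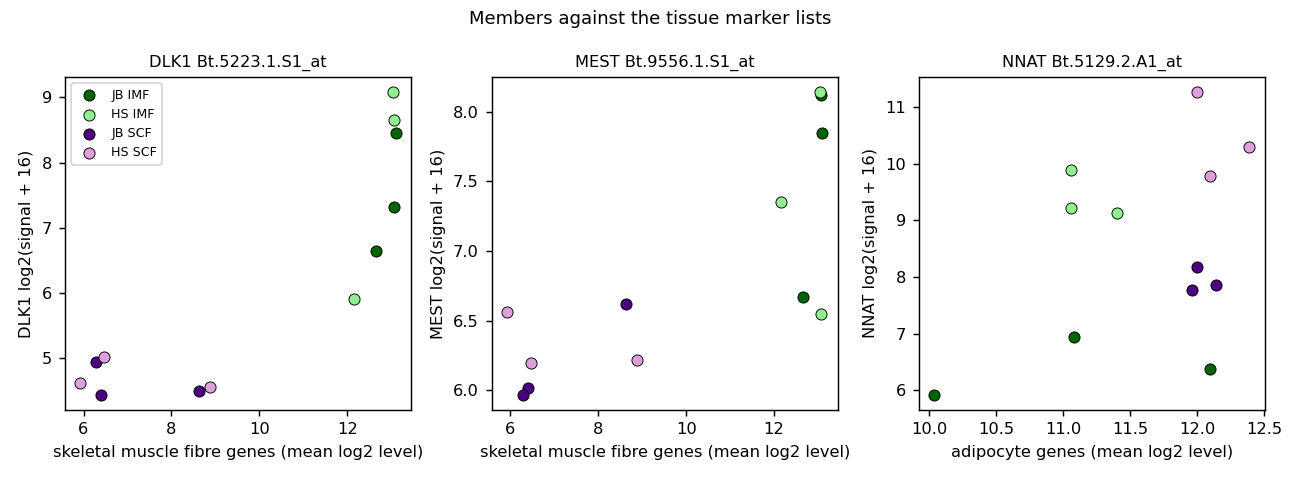
log2(signal + 16) of DLK1 and MEST against the mean log2 level of 15 muscle fibre genes, and of NNAT against that of 16 adipocyte genes, by sample. DLK1 is near its floor in all SCF samples. These include the pair with muscle levels of 8.62 and 8.87, which lie far below the 12.16 to 13.10 of IMF. The samples span adipocyte levels of 10.04 to 12.39.

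The probe sets of other named genes most like DLK1 were those of HSPB2, LDB3, CUTC, DUSP13 and S100A1, with Pearson correlations of 0.98, 0.97, 0.97, 0.97 and 0.96 over 12 samples. The Spearman correlations were 0.85, 0.96, 0.80, 0.82 and 0.92. Without HS IMF 1 and HS IMF 3, r was 0.94 to 0.97. All 5 separate the depots, so the correlations reflect the split of the samples as well as their order within a depot.

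MEG3, a non-coding RNA that is transcribed from the maternal copy in mouse and human, is the next gene after DLK1 on chromosome 21 in ARS-UCD2.0. None of its 5 probe sets tested passed between the depots over both breeds, with differences of -0.02 to 0.60 and adjusted p-values of 0.419 to 0.971 by limma. Without HS IMF 3, Bt.12510.3.S1_at was higher in IMF by 0.80 (adjusted p = 0.0398), and without HS IMF 3 and HS SCF 4 so was Bt.12510.2.S1_at, by 1.29 (adjusted p = 0.0189). Probe set Bt.12510.1.S1_at had signals of 125, 58.9 and 168 in JB IMF and of 314, 186 and 235 in HS IMF, which did not overlap, with a difference of -1.40 ± 0.36. In SCF its signals of 131, 255 and 126 in JB and 179, 250 and 255 in HS did overlap. All 5 had a negative JB minus HS difference in both depots, from -1.40 to -0.14 in IMF and from -1.24 to -0.10 in SCF. Without HS IMF 2 and HS SCF 4 the differences ran from -1.66 to 0.39 in IMF, where Bt.12510.3.S1_at and Bt.1421.1.S1_at turned to 0.39 and 0.31 and Bt.12510.2.S1_at was -0.24. In SCF they then ran from -0.63 to -0.07, and Bt.12510.2.S1_at was -0.52 in place of -1.24. Without HS IMF 3, Bt.12510.3.S1_at was -0.81 and Bt.12510.1.S1_a_at -0.40 in IMF.

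The probe sets of MEST disagreed. MEST, the mesoderm specific transcript, encodes a protein of the alpha/beta hydrolase fold and is linked to fat mass in mice. Bt.9556.1.S1_at had signals of 231, 87.6 and 290 in JB IMF and of 279, 133 and 56.1 in HS IMF, against 51.1, 48.3 and 86.6 in JB SCF and 57.2, 61.3 and 81.3 in HS SCF. It was higher in IMF over both breeds by 1.18 ± 0.31 (SE), 2.27-fold (adjusted p = 0.0302 by limma), although the depots overlapped through HS IMF 3. Without HS IMF 3 the difference was 1.41 (adjusted p = 0.0122).

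The call for MEST was lost without HS IMF 2 and HS SCF 4 (adjusted p = 0.0603 by limma) and in the values as deposited (0.058). It was also lost without JB IMF 1, JB IMF 3, JB SCF 4, JB SCF 5, HS SCF 5 or HS SCF 6, each left out alone, at 0.0546 to 0.088. Within JB the difference was 1.34 ± 0.43 (adjusted p = 0.156, but 0.0375 without JB IMF 2 and 0.000496 with array weights) and within HS 1.02 ± 0.43 (adjusted p = 0.203). The other MEST probe set tested, Bt.28163.1.S1_at, had signals of 369, 411 and 490 in JB IMF and of 215, 405 and 110 in HS IMF. The SCF signals were 400, 490 and 566 in JB and 704, 372 and 434 in HS. Its IMF minus SCF difference was -0.49 ± 0.25 and did not pass (adjusted p = 0.23 by limma). The dim MEST probe sets, Bt.29873.1.A1_at and Bt.29873.1.S1_at, differed by 0.40 ± 0.16 and 0.18 ± 0.19.

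Over all members, 3 of 16 probe sets passed between the depots over both breeds: DLK1 and 1 of MEST were higher in IMF and NNAT was lower. Among all 16811 probe sets, 11% passed in this comparison. DLK1 entered the 16 through its IMF level alone, so the count is a description. With no filter 5 of 24 passed, where 8.17% of all did. The other 13 members differed by -0.49 to 0.26, and the median of the 16 was -0.09, beside -0.06 for all probe sets. Within JB and within HS, DLK1 alone passed, 1 of 16 each time, where 3.07% and 3.32% of all probe sets passed. Of the 16, 1 member, DLK1, had no overlap between the 6 IMF and the 6 SCF samples, as did 6.24% of all probe sets. These counts too rest on DLK1, which was tested only through its IMF level, so they are a description and no result about the members. The interaction of breed and depot passed for 0 of 16 members by limma, with 0 of 16 at an unadjusted p below 0.05. NNAT, whose interaction is given above with no test because the set was selected on its breed differences, is among the 16. The count is therefore a description. The SE of the interaction was 0.31 to 1.02 over the members, beside 0.16 to 0.51 for the depot difference over both breeds, so the 0 does not show that the breed differences were alike in both depots. In all probe sets it passed for 0 of 16811, a share of 0%, with 359 at an unadjusted p below 0.05.

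**Figure D4:**
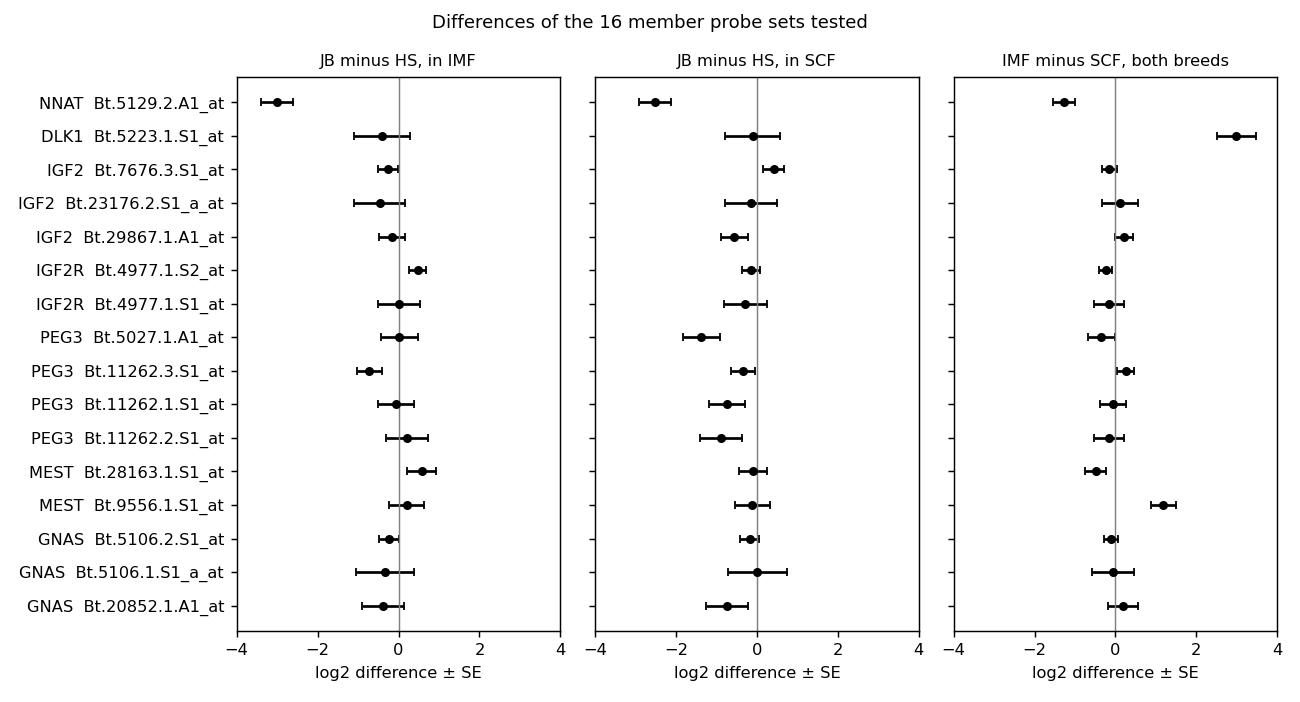
log2 differences with their SE of the 16 member probe sets tested, for JB minus HS in IMF, JB minus HS in SCF and IMF minus SCF over both breeds. NNAT lies farthest from 0 in both breed panels, at -3.0 and -2.52, and DLK1 in the depot panel, at 2.99.

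IGF2 is a fetal and placental growth factor that is also made by adult tissue. Its probe set Bt.7676.3.S1_at had signals of 1177, 949 and 1412 in JB IMF and of 1119, 1451 and 767 in HS IMF, against 1409, 1737 and 1893 in JB SCF and 882, 1362 and 1323 in HS SCF. In SCF the deposited signals of JB lay just above those of HS, and after normalization they overlapped. The depot difference was -0.15 ± 0.18 (adjusted p = 0.625 by limma). The breed difference was -0.26 ± 0.25 in IMF and 0.41 ± 0.25 in SCF, where it was 0.24 without HS SCF 4, and the difference in IMF turned to 0.11 in the values as deposited. Bt.29867.1.A1_at had signals of 49.8, 55.5 and 63.9 in JB SCF and of 72.0, 115 and 85.3 in HS SCF, with no overlap and a difference of -0.56 ± 0.33. In IMF its samples overlapped, at 55.3 to 108 in JB and 59.8 to 100 in HS. The dim probe set Bt.29867.1.S1_at never rose above 13.4. Bt.23176.2.S1_a_at differed by 0.11 ± 0.45 between the depots (adjusted p = 0.906 by limma). Between the breeds it differed by -0.47 ± 0.64 in IMF and -0.14 ± 0.64 in SCF, with overlap in both. The 3 IGF2 probe sets tested disagreed: their Pearson correlations over the 12 samples ran from -0.12 to 0.09. A probe set of another gene, CALR, shares the leading number in the name of Bt.7676.3.S1_at. Whether Bt.7676.3.S1_at measures IGF2 was not tested.

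IGF2R binds IGF2 and carries it to the lysosome, and it also sorts lysosomal enzymes. Its probe set Bt.4977.1.S2_at had signals of 1396, 1266 and 1431 in JB IMF, all above the 981, 939 and 440 of HS IMF, with a difference of 0.47 ± 0.22. Without HS IMF 3 the difference was 0.35, and in the values as deposited it was 0.86. In SCF the signals were 1187, 1323 and 1534 in JB and 1293, 1226 and 1631 in HS, with a difference of -0.14 ± 0.22. The depot difference over both breeds was -0.24 ± 0.16 (adjusted p = 0.355 by limma). For the other IGF2R probe set tested, Bt.4977.1.S1_at, the breeds overlapped in both depots. Its breed difference was 0.01 ± 0.53 in IMF and -0.29 ± 0.53 in SCF. Of 11 other genes of the IGF system tested, which bind, carry or receive these factors, 0 passed between the depots, the nearest being IGFBP3, a carrier of the factors in blood, at -0.82 ± 0.25 (adjusted p = 0.0533 by limma). IGFBP3 passed in 7 of 23 settings, with adjusted p-values of 0.0251 to 0.131 over all of them. Among the 7 were those without JB SCF 6 (adjusted p = 0.0369) or HS IMF 2 (adjusted p = 0.034). The count of the list was 1 without JB IMF 2 or JB SCF 6 and 2 without HS IMF 2. Within HS, IGFBP3 was lower in IMF, with a difference of -1.45 ± 0.35 (adjusted p = 0.0437), a call that held in 10 of 22 settings, and within JB it differed by -0.18 ± 0.35. The interaction of 1.27 ± 0.49 did not pass (adjusted p = 0.99). The median of the 11 was 0.02.

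PEG3, a zinc finger protein transcribed from the paternal copy, had 5 probe sets, of which 4 were tested. Probe set Bt.11262.3.S1_at had signals of 121, 140 and 131 in JB IMF and of 168, 143 and 210 in HS IMF, and of 124, 124 and 137 in JB SCF and 167, 152 and 158 in HS SCF. Every JB sample lay below every HS sample, by a narrow margin of 140 against 143 in IMF. The difference was -0.72 ± 0.30 in IMF and -0.35 ± 0.30 in SCF, and in IMF it was -0.34 without HS IMF 3. Over both depots 2 of 16 members, this one and NNAT, were lower in all 6 JB samples than in all 6 HS samples. Of all probe sets, 0.559% were. NNAT was known to differ between the breeds when the set was selected, so the count is a description and no result about the members.

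The other 3 PEG3 probe sets tested had log2 differences that were larger in size in SCF than in IMF, but without HS IMF 2 and HS SCF 4 this held for Bt.5027.1.A1_at alone. The interaction passed for none of the 3. Probe set Bt.11262.3.S1_at stood apart from these 3: over the 12 samples their Pearson correlations with it ran from -0.23 to 0.03. Among themselves the 3 correlated at 0.37 to 0.88. The highest value was that of Bt.11262.1.S1_at with Bt.11262.2.S1_at, both of which were highest in HS IMF 2 and HS SCF 4. In IMF the breeds overlapped in all 3. Bt.5027.1.A1_at had signals of 180, 96.1 and 181 in JB IMF and of 291, 113 and 53.1 in HS IMF. In SCF its signals of 201, 115 and 64.2 in JB were all below the 369, 391 and 208 of HS. The difference was 0.02 ± 0.46 in IMF and -1.38 ± 0.46 in SCF, and the interaction of 1.40 ± 0.65 did not pass (adjusted p = 0.99 by limma). Bt.11262.1.S1_at also had no overlap in SCF, at 133, 128 and 113 in JB and 402, 146 and 152 in HS, with a difference of -0.74 ± 0.45. Without HS IMF 2 and HS SCF 4 it was -0.26 in SCF, and the -0.07 ± 0.45 of IMF turned to 0.45. Bt.11262.2.S1_at differed by 0.20 ± 0.52 in IMF and -0.89 ± 0.52 in SCF, with overlap in both, and without HS IMF 2 and HS SCF 4 by 0.65 in IMF and -0.29 in SCF. Without HS IMF 3 the difference in IMF turned to -0.30. That of Bt.5027.1.A1_at was then -0.39 in IMF, and without HS IMF 2 and HS SCF 4 it was -0.05 in IMF and -1.23 in SCF. The dim Bt.25754.1.A1_a_at reached at most 27.0.

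Counted over members, 1 of 16 lay higher in all JB than in all HS samples in IMF and 2 lay lower, where 13.8% of all probe sets had no overlap. In SCF 0 lay higher and 5 lower, where 12% had none. Of the 5, 3 were probe sets of PEG3 and the others were of NNAT and IGF2. NNAT, on which the set was selected, was also among the 2 lower in IMF. Both counts are therefore a description and no result about the members. With 1 probe set per gene, which leaves 7 members, the count in SCF was 2 of 7, given without the share over all probe sets.

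GNAS encodes the alpha subunit of the stimulatory G protein, which links hormone receptors such as the beta-adrenergic receptors to cyclic AMP. Its probe set Bt.5106.2.S1_at had signals of 7970, 7252 and 8817 in JB IMF and of 5787, 7426 and 10518 in HS IMF. The SCF signals were 8874, 9574 and 9432 in JB and 9189, 7275 and 10887 in HS. The breeds overlapped in both depots, and within JB the deposited IMF signals lay just below those of SCF but overlapped after normalization. The depots differed by -0.11 ± 0.17 over both breeds (adjusted p = 0.716 by limma). Bt.5106.1.S1_a_at ranged from 274 to 2088, both extremes lying in HS samples. The dim Bt.5106.1.S1_at was lower in JB than in HS in SCF without overlap, at 31.8, 29.5 and 32.6 against 42.3, 47.7 and 60.4, while the dim Bt.16798.1.A1_at was listed at 0.01 to 49.5.

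Of 14 other genes of the G protein and cyclic AMP pathway, 2 passed between the depots, both higher in IMF. ADCY2, an adenylyl cyclase, differed by 4.70 ± 0.41 (adjusted p = 1.94e-05 by limma) and PRKACA, the catalytic subunit of protein kinase A, by 0.60 ± 0.16 (adjusted p = 0.0344). The call of PRKACA held in 13 of 23 settings and was lost without JB IMF 1, JB IMF 3, any JB SCF sample, HS SCF 4 or HS SCF 6, each left out alone (adjusted p 0.0537 to 0.103), and in the values as deposited (0.203). Of 8 genes of the Notch pathway, whose ligands carry EGF-like repeats as DLK1 does, 0 passed. The nearest, DLK2, differed by 0.81 ± 0.30 (adjusted p = 0.103 by limma). It passed in 4 of 22 settings, with adjusted p-values of 0.0149 to 0.222 over all of them and 0.0479 without HS IMF 1. The calcium pump of the sarcoplasmic reticulum, which NNAT is thought to modulate in mouse cells, was measured through 5 genes, 4 of which passed higher in IMF. They were SLN at 7.42, ATP2A1 at 5.45, PLN at 2.90 and ATP2A2 at 2.5, all known from muscle.

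Of 23 genes tested from a list of imprinted genes outside the set, 2 passed between the depots, where 11% of all probe sets did, so the count is no result about imprinted genes. Of these, 1 passed higher in IMF, UBE3A at 1.14 ± 0.29 (adjusted p = 0.0267 by limma), and 1 lower, PON3 at -1.65 ± 0.36 (adjusted p = 0.0137). The call of UBE3A was lost without JB IMF 1, JB IMF 3, JB SCF 5, JB SCF 6 or HS SCF 6 (adjusted p 0.0639 to 0.0784), and that of PON3 held in all 23 settings tried. PON2 differed by -0.97 ± 0.29 (adjusted p = 0.0534) and NAP1L5 by 0.87 ± 0.27 (adjusted p = 0.0568), and both passed without JB IMF 2 (adjusted p = 0.000933 and 0.0472), as NAP1L5 did without HS IMF 3 (0.0257). Within JB, NAP1L5 was higher in IMF by 1.69 ± 0.38 (adjusted p = 0.0321), a call that held in 15 of 21 settings, and within HS it differed by 0.06 ± 0.38. The interaction of 1.64 ± 0.54 did not pass (adjusted p = 0.99). Between the breeds 12 of the 23 had a positive JB minus HS difference and 11 a negative one, in IMF as in SCF. Of 5 genes of imprinting control tested, such as DNA methyltransferases, 0 passed. Of 9 chromosomal neighbours of members that were tested, 1 passed, where 11% of all probe sets did, so the count is no result about neighbours. It was CTSZ, lower in IMF by -0.97 ± 0.24 (adjusted p = 0.022 by limma). Over 23 settings, 0 to 1 of the neighbours passed lower.

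Some members moved with single arrays. HS IMF 2 and HS SCF 4 were the 2 highest of the 12 samples for 5 of 16 members, as for 7.85% of all probe sets. IGF2 Bt.23176.2.S1_a_at had 532 and 480 there, against 84.8 to 238 elsewhere. IGF2R Bt.4977.1.S1_at had 876 and 623, PEG3 Bt.11262.1.S1_at 290 and 402, PEG3 Bt.11262.2.S1_at 203 and 465, and GNAS Bt.20852.1.A1_at 1280 and 1151. So did 2 of the 5 MEG3 probe sets, with 3338 and 2418 for Bt.12510.2.S1_at. These arrays also had the highest bioB signals, whose part in the pattern was not tested, and the pattern was noticed in the data.

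**Figure D5:**
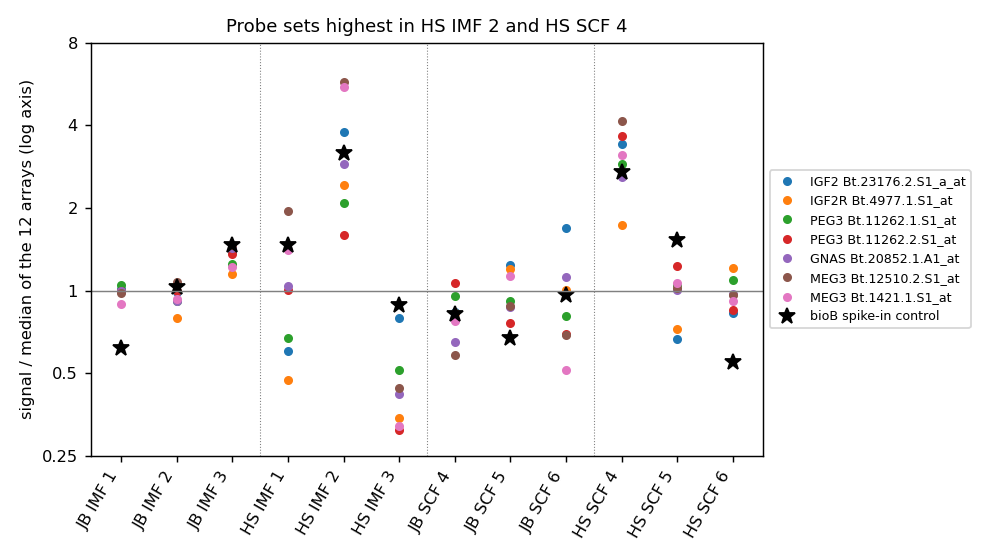
Signal of 5 member probe sets, 2 MEG3 probe sets and the bioB control in each sample, divided by the median of the 12 arrays (log axis). All 8 are highest in HS IMF 2 and HS SCF 4.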

How the data were processed

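Labelled cRNA was made from total RNA by the standard Affymetrix procedure and read on the bovine array, per the labels' protocols. GCOS 1.1.1 and Affymetrix Expression Console 1.1 stand in the submitters' processing notes. How the authors summarized and normalized the probes is not given in the sources used here. They deposited linear intensities for 24128 probe sets and 12 samples.

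Here they were turned into log2(signal + 16) and quantile normalized, the 112 controls and the dimmest 30% were then left out, and 4 group means were fitted with limma 3.58.1 (R 4.3.3; 8 residual and 4.05 prior degrees of freedom). Whether controls entered the normalization was settled after seeing results, and the member calls were the same either way. Figures were drawn with matplotlib 3.10.9.

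Members, gene lists, tests and other settings were chosen with earlier results of these data known. Text names every member probe set, up to 4 genes with the smallest depot p of each list, chromosomal neighbours that are discussed, and the 5 genes most like NNAT and DLK1. A gene of a list enters through the probe set with the highest mean. Sample numbers were not taken to pair samples: deviations of same-numbered JB and HS samples correlated at -0.28 to 0.12. Same-numbered samples are of different breeds, so this does not concern animals shared by the depots. Whether IMF and SCF samples of a breed came from the same animals is not given and was not checked. The depot p-values treat all samples as separate. No sequences are shown. The precision is limited by 3 arrays per group.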

Additional observations from a re-analysis of the deposited data

How the results depend on the processing

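NNAT passed between the depots in all 23 settings tried (adjusted p 0.00808 to 0.0385), DLK1 in 22 of 22 and MEST Bt.9556.1.S1_at in 14 of 22. The differences of NNAT between the breeds ran from -3.26 to -2.67 in IMF and from -2.86 to -2.11 in SCF over 22 settings each. No result changed sign among those that passed. Over both breeds, 5 of 24 members passed with no filter, against 3 of 16, the dim probe sets of NNAT (adjusted p = 0.0338 by limma) and DLK1 (adjusted p = 0.0499) being added, and 2 to 3 with 1 sample left out. Within JB, 0 passed with no filter, 0 with the lowest 50% left out, 4 with array weights and 0 to 2 with 1 sample left out. Within HS, 0 passed with the lowest 50% left out, 0 with array weights and 0 to 1 with 1 sample left out. DLK1 itself is among the lowest 50%. With 1 sample left out, 3 to 7 members were without overlap between the breeds in IMF and 5 to 7 in SCF. Without HS IMF 2 and HS SCF 4, 7 members were without overlap in IMF, and with 1 probe set per gene 2 of 7 were in SCF. Fewer samples leave fewer chances to overlap. The shares over all probe sets are not set beside the counts of the settings in this section, so these counts are no result about the members. The settings without HS IMF 2 and HS SCF 4, and without HS IMF 3 and HS SCF 4, were chosen after seeing the data, as was running the settings on the gene lists and neighbours. With a replicate block, the interaction passed for 0 members and 3 in IMF and 5 in SCF were without overlap. With a random replicate block, 3, 1 and 1 members passed between the depots over both breeds, within JB and within HS. Both blocks join same-numbered JB and HS samples, so they do not cover IMF and SCF samples that may share an animal. Between the breeds in IMF the median of all probe sets was 0.10 after quantile normalization and 0.38 as deposited. Over the settings, 1 to 9 adipocyte, 0 to 4 adipose progenitor and 0 to 1 satellite cell genes passed lower in IMF. Signal near background limits the dim probe sets of NNAT and DLK1.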
